A study of Physcomitrium patens with 3 samples.

Results

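The comparison described here set the library labelled rdr6 against the wild-type library of Physcomitrium patens (the moss long known as Physcomitrella), region by region along the nuclear genome. The series holds 3 double-stranded RNA sequencing libraries of 10-day-old protonemata, the filamentous juvenile tissue, with 1 library each of wild type, rdr2 and rdr6. All were grown on BCD medium with 50 mM ammonium tartrate, with 16 h of light and 8 h of dark per day at 22 °C, and received no treatment. The labels name the genotypes but give no allele, line or way of making either mutant. The table of the library labelled rdr2 is named for a different rdr gene, and its label was followed without a check. With 1 library per genotype there was no replicate and no test between genotypes, and "higher" and "lower" below describe these libraries only.

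Nuclear loci of the deposited list were joined into 1 region wherever the gap from a locus to the next was at most 10 kb. The 39907 nuclear loci on 1024 scaffolds gave 14148 regions, and 2441 regions on 516 scaffolds had at least 20 reads over wild type and rdr6 together. These 2441 regions were chosen by their summed raw reads. The rdr6 library is the deeper, with 9346061 reads in all against 6992269 in wild type, so rdr6 weighs more in this sum. Of the remainder, 6296 regions had no read in either library and 5411 had 1 to 19 reads. Regions are named by scaffold with their first and last base in parentheses, on the build of the deposited list; the sources used here do not name it. The loci carry cluster numbers and no gene names, so neither the RDR6 gene nor protonemal marker genes could be looked up, and whether a region is exonic, intronic or intergenic is not stated here.

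RDR6 is an RNA-dependent RNA polymerase, an enzyme that copies single-stranded RNA into double strands. In land plants it is best known for the trans-acting small interfering RNA pathway, in which a microRNA cuts a transcript, RDR6 copies a fragment of it, and a Dicer-like nuclease cuts the double strand into short RNAs in register. RDR2, after which the other mutant is labelled, is known in flowering plants for the pathway of heterochromatic small interfering RNAs. Double-stranded RNA reads can also come from transcripts that fold back on themselves or from overlapping transcripts of both strands, which need no such polymerase. The comparison asks which regions gave fewer or more double-stranded RNA reads in the library labelled rdr6.

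The wild-type library had 6992269 reads in all and the rdr6 library 9346061, so that 1 read was worth 0.143 and 0.107 RPM (reads-per-million of the library total), respectively. Nuclear loci held 4188599 reads in wild type and 5364278 in rdr6, and the 2441 regions took 99.8% and 99.7% of these. The 100 regions with most reads held 94.0% of nuclear reads in wild type and 92.9% in rdr6. Values below are therefore ratios of RPM between the libraries, with an exact 95% Clopper-Pearson interval that covers counting error only. No molecular identifiers are described, so reads may repeat 1 molecule, which can make the interval too narrow even for that.

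The typical region differed little between wild type and rdr6, and few regions differed strongly. The median log2 ratio of rdr6 to wild type, with a pseudocount of 0.5 reads, was 0.13 over the 2441 regions (order-statistic 95% interval 0.10 to 0.16). Regions of 1 library per genotype are not replicates, so this interval does not cover the spread between libraries. With TMM factors, the scaling that moved it most, the median was 0.046, outside this interval. The central 50% of regions ran from -0.33 to 0.55 and the central 90% from -1.21 to 1.31. A region was called lower or higher when its ratio was at least 4 and its interval lay wholly beyond 2-fold. By this rule 35 regions were lower in rdr6, 1.43% of those examined, and 29 were higher, 1.19%. The lower regions lay on 31 scaffolds and the higher ones on 29.

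**Figure D1:**
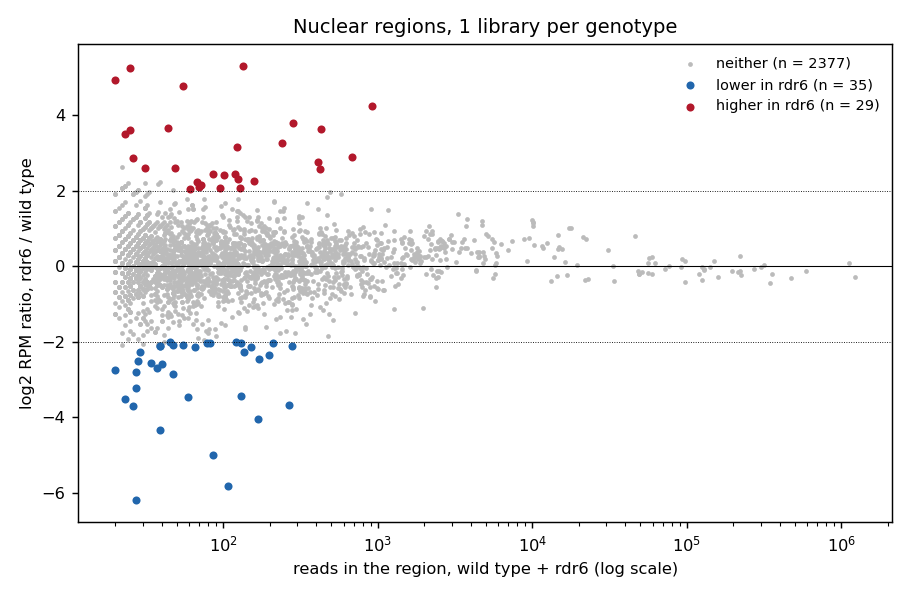
Each point is 1 of the 2441 nuclear regions, placed by its reads in wild type and rdr6 together (x axis, log scale) and its log2 RPM ratio of rdr6 to wild type (y axis, pseudocount of 0.5 reads). Dotted lines mark a ratio of 4 in either direction. The 35 lower and 29 higher regions all had fewer than 1000 reads, and regions with more reads lie between -1.14 and 1.501.

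The called regions were a small part of the double-stranded RNA. The 35 lower regions together had 2527 wild-type reads, 538 rdr6 reads and 1997 rdr2 reads, which were 361.4, 57.6 and 205.8 RPM. They made up 0.0603% of nuclear reads in wild type and 0.01003% in rdr6. The 29 higher regions had 408, 4613 and 409 reads, in the same order, which were 58.4, 493.6 and 42.1 RPM and 0.00974% of nuclear reads in wild type and 0.0860% in rdr6. The called region with most reads, on scaffold_213, ranked at place 253 among all regions by reads.

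The regions lowest in rdr6 included some with reads spread over several loci and others with most reads at a single locus. Among the former, the scaffold_82 region (31723 to 40098) had 242 wild-type reads, 25 rdr6 reads and 764 rdr2 reads, which were 34.6, 2.67 and 78.7 RPM. The rdr6 level was 12.9-fold below wild type (8.56 to 20.4). All 3 loci of the region lay below wild type in rdr6, and each was longer than 30 bp. Cluster_16760 (31723 to 32373) fell from 17.0 RPM in wild type to 0.856 in rdr6, with 35.9 in rdr2. Cluster_16761 (38134 to 38664) fell from 15.7 RPM to 1.39, 11.3-fold (6.35 to 21.9), with 41.3 in rdr2. Cluster_16762 (39535 to 40098), the third locus, had 13 wild-type, 4 rdr6 and 15 rdr2 reads. The low level in rdr6 was thus seen at loci over 5 kb apart, and rdr2 was the library with most reads at the larger loci.

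The scaffold_210 region (793753 to 803986) showed the same order of libraries. Wild type gave 117 reads, rdr6 14 and rdr2 344, an 11.2-fold lower level in rdr6 (6.40 to 21.1). Cluster_28553 (800103 to 800521) gave 32 wild-type, 7 rdr6 and 123 rdr2 reads. Cluster_28556 (802642 to 802977) gave 40, 3 and 112 reads in that order. Cluster_28557 (803526 to 803986) gave 40, 2 and 103. These 3 loci of 336 to 461 bp lie within 4 kb and each met the rule alone. Cluster_28552 (793753 to 794306), which the joining within 10 kb adds at the near end, gave 5, 2 and 6.

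**Figure D2:**
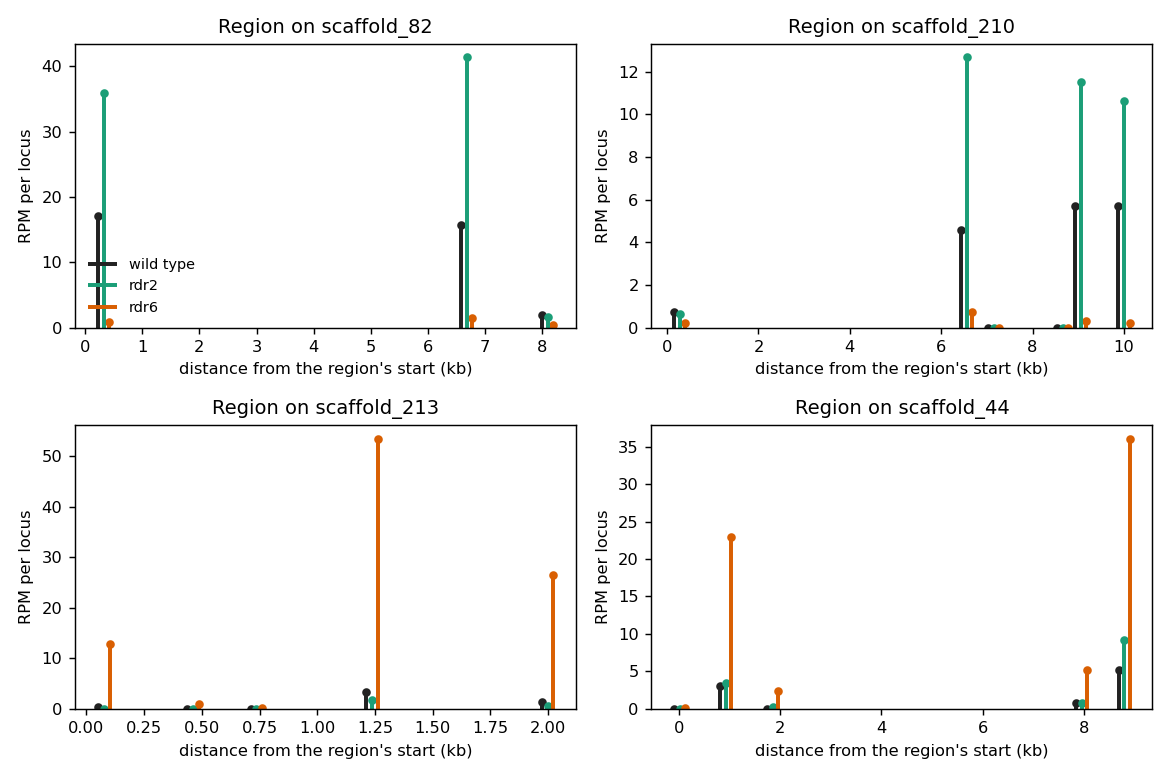
Each stem is 1 listed locus, placed at its distance from the start of its region (x axis, kb), with its height in RPM (y axis), for wild type, rdr2 and rdr6. Stems of 1 locus are set slightly apart. The scaffold_82 and scaffold_210 regions have low rdr6 stems at every locus, and the scaffold_213 and scaffold_44 regions have rdr6 as the tallest stem at every locus with reads in more than 1 library. The panels were taken from called regions with several loci of at least 5 reads, all on the side of the call. Several of these loci also had to meet the rule alone, and regions with most reads were taken. Agreement between loci was thus a condition of the choice and not a result.

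Other regions of several loci were lower in rdr6 by smaller folds. The scaffold_61 region (111741 to 113876) gave 136 wild-type, 33 rdr6 and 86 rdr2 reads, a 5.51-fold lower level in rdr6 (3.74 to 8.32). Its Cluster_13594 gave 114 wild-type and 14 rdr6 reads, and the other locus 22 and 19, a log2 ratio of -0.63. The difference in that region thus came mainly from 1 of its 2 loci. The scaffold_66 region (839941 to 849165) had reads at all of its 9 loci, with 106 from wild type, 29 from rdr6 and 47 from rdr2, a 4.89-fold lower level in rdr6 (3.21 to 7.64). Cluster_14443 and Cluster_14444 at its near end each met the rule alone, with 59 against 9 and 32 against 5 reads. At Cluster_14447, a locus of 15 bp further along, rdr6 had 8 reads and wild type 5. The scaffold_16 region (2416107 to 2424608) gave 117 wild-type, 35 rdr6 and 27 rdr2 reads, a 4.47-fold lower level in rdr6 (3.04 to 6.72). All 5 of its loci with at least 5 reads lay below wild type. Without the locus with most reads, the scaffold_66 and scaffold_16 regions no longer met the rule, at log2 ratios of -1.63 and -1.67. The scaffold_328 region (227585 to 269156) was the longest of the lower regions at 41572 bp with 38 listed loci, but it rested on 17 wild-type reads against 3 in each mutant (7.57-fold, 2.19 to 40.3).

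In the following regions 1 locus of 30 bp or less held most of the wild-type and rdr6 reads. The scaffold_59 region (1579789 to 1580153) gave 105 wild-type reads, 2 rdr6 reads and none from rdr2, a 70.2-fold lower level in rdr6 (18.9 to 587). The scaffold_231 region (285910 to 285924), a single locus of 15 bp, gave 83, 3 and 0 reads in that order, 36.98-fold lower (12.2 to 183). The scaffold_68 region (1193038 to 1208583) gave 37, 2 and 0, 24.7-fold lower (6.38 to 212). In each of these the wild-type library stood alone, with nearly no read in either mutant. The scaffold_214 region (248656 to 248678) gave 24, 2 and 0 reads, 16.0-fold lower (3.98 to 140.0). The scaffold_23 region (939031 to 957252) gave 157, 41 and 5 reads, all at 1 locus of 19 bp, 5.12-fold lower (3.61 to 7.41). The scaffold_114 region (1060518 to 1061384) gave 53, 6 and 24 reads, 11.8-fold lower (5.08 to 33.6), with 79.7% of its wild-type and rdr6 reads at a locus of 22 bp. That locus had 1 rdr2 read, and another of 31 bp had 23.

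Other lower regions had most of their wild-type and rdr6 reads at a single longer locus. The scaffold_91 region (268803 to 275516) gave 155 wild-type, 12 rdr6 and 3 rdr2 reads, 17.3-fold lower in rdr6 (9.61 to 34.1). All of its wild-type and rdr6 reads lay at Cluster_17996 of 330 bp. The scaffold_104 region (404815 to 420325) gave 21, 2 and 5 reads, 14.03-fold lower (3.43 to 123). The scaffold_163 region (342555 to 346400) was the only lower region without a read in rdr6, with 27 in wild type and 0 in rdr2. Set against a floor of 3 rdr6 reads, roughly the upper one-sided 95% bound when no read is seen, it was 12.03-fold lower, and its exact interval reached down to 9.13-fold. It passed the read minimum through wild type alone, which set its call. The other 20 lower regions had between 27 and 278 reads over both libraries and were 4.05-fold to 10.7-fold lower. Their rdr2 counts ran from 0 to 194. When loci within 20 kb were joined, the scaffold_23, scaffold_104, scaffold_16 and scaffold_328 regions no longer met the rule, at log2 ratios of -1.02, -1.43, -1.64 and -2.13. The scaffold_59 and scaffold_114 regions still met it, but went from -5.82 to -4.71 and from -3.46 to -2.03. With joining within 1 kb the scaffold_68, scaffold_210 and scaffold_66 regions went further down, from -4.33 to -6.61, from -3.44 to -4.29 and from -2.27 to -3.08. Taken as single loci, the scaffold_61 and scaffold_16 regions went from -2.45 to -3.40 and from -2.15 to -2.87, and the scaffold_59 region to -6.54.

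Of the 12 regions highest in rdr6, 8 had reads at 2 or more loci. The scaffold_213 region (572373 to 574485) had 34 wild-type reads, 878 rdr6 reads and 22 rdr2 reads, which were 4.86, 93.9 and 2.27 RPM. The rdr6 level was 19.3-fold above wild type (13.7 to 28.1). Its largest locus, Cluster_28751 (573415 to 573805), stood at 3.29 RPM in wild type, 53.5 in rdr6 and 1.75 in rdr2. The remaining loci together had 11 wild-type and 378 rdr6 reads, 25.7-fold higher (14.2 to 51.9). The rise in this region of 2113 bp was thus seen at each of its larger loci.

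The scaffold_55 region (1810616 to 1814695) gave 24 wild-type, 407 rdr6 and 11 rdr2 reads, a 12.7-fold higher level in rdr6 (8.41 to 20.03). Cluster_12827, Cluster_12828 and Cluster_12830 had 14, 4 and 6 reads in wild type and 280, 81 and 41 in rdr6, and each met the rule alone. The scaffold_42 region (1603284 to 1607939) gave 14, 268 and 18 reads in that order, 14.3-fold higher (8.39 to 26.6). Its 2 loci of 44 and 33 bp lie at either end of the region, over 4 kb apart, with 72 and 196 reads in rdr6 against 6 and 8 in wild type, and without the larger its log2 ratio went from 3.79 to 3.06. Distant loci lay on the same side of wild type here as in the scaffold_82 region, although in the other direction. Both regions were called by their summed reads, which favours such agreement.

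The scaffold_44 region (769382 to 778537) gave 62 wild-type reads, 623 rdr6 reads and 132 rdr2 reads, which were 8.87, 66.7 and 13.6 RPM, and its rdr6 level was 7.52-fold above wild type (5.78 to 9.92). Each of its 4 loci with at least 5 reads met the rule alone. They lie as a pair at each end, with Cluster_10808 (214 rdr6 reads against 21) and Cluster_10809 (22 against 0) near the start and Cluster_10810 (49 against 5) and Cluster_10811 (337 against 36) near the end. The scaffold_257 region (431934 to 439474) gave 47, 378 and 40 reads in that order, 6.02-fold higher (4.44 to 8.33). All of its 7 loci had a read, and 4 of them in a row, from Cluster_31486 to Cluster_31489, met the rule alone. The scaffold_102 region (720444 to 729478) gave 40, 367 and 29, 6.86-fold higher (4.94 to 9.77). In these regions wild type and rdr2 were both at 14 RPM or less, and rdr6 stood above 39 RPM.

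Regions with most reads at 1 locus were also found among those higher in rdr6. The scaffold_8 region (2028588 to 2028601), a locus of 14 bp, gave 2 wild-type, 132 rdr6 and 0 rdr2 reads, 49.4-fold higher in rdr6 (13.4 to 412). The scaffold_190 region (318965 to 319114) gave 1, 54 and 1 reads in that order, 40.4-fold higher (6.95 to 1625). The scaffold_123 region (1226300 to 1226715) gave 9, 113 and 0 reads, 9.39-fold higher (4.78 to 21.1). In these 3 regions rdr6 held nearly every read, but the few wild-type reads leave the first 2 ratios wide. The scaffold_89 region (764423 to 772851) gave 17, 223 and 13 reads, 9.81-fold higher (5.99 to 17.1), with 95.8% of its wild-type and rdr6 reads in loci of 30 bp or less. When joined within 20 kb its log2 ratio of 3.26 fell to 1.13 and no longer met the rule, and without its locus of most reads it was 2.30. The scaffold_307 region (219612 to 223174) gave 2, 42 and 0 reads, all at 1 locus of 280 bp, 15.7-fold higher (4.09 to 134).

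Only 2 of the higher regions had no wild-type read. The scaffold_211 region (490878 to 492734) gave 25 rdr6 reads and 4 rdr2 reads, 6.23-fold higher in rdr6 against the same floor of 3 wild-type reads. The scaffold_34 region (1066120 to 1066181) gave 20 and 0, 4.99-fold higher against that floor. Both reached the read minimum through rdr6 alone, so the minimum of 20 reads set their call and the least value of these folds. The exact intervals of these 2 regions began at 4.71-fold and 3.69-fold. When joined within 20 kb they still met the rule, but their log2 ratios went from 5.25 to 1.99 and from 4.94 to 2.26. The scaffold_47 region (1268192 to 1292760) and the scaffold_131 region (249310 to 267623) were among the higher regions with most loci that had a read, 8 and 6. The former gave 19 wild-type, 110 rdr6 and 14 rdr2 reads, 4.33-fold higher (2.65 to 7.47). The latter gave 12, 89 and 13 in that order, 5.55-fold higher (3.02 to 11.1). Without its locus of most reads the scaffold_47 region had a log2 ratio of 1.92 and no longer met the rule, while the scaffold_131 region went from 2.42 to 3.33. With joining within 1 kb the scaffold_47 region went from 2.08 to 3.10. The other 14 higher regions had 23 to 159 reads over both libraries and were 4.32-fold to 18.0-fold higher. Their rdr2 counts ran from 0 to 26.

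**Figure D3:**
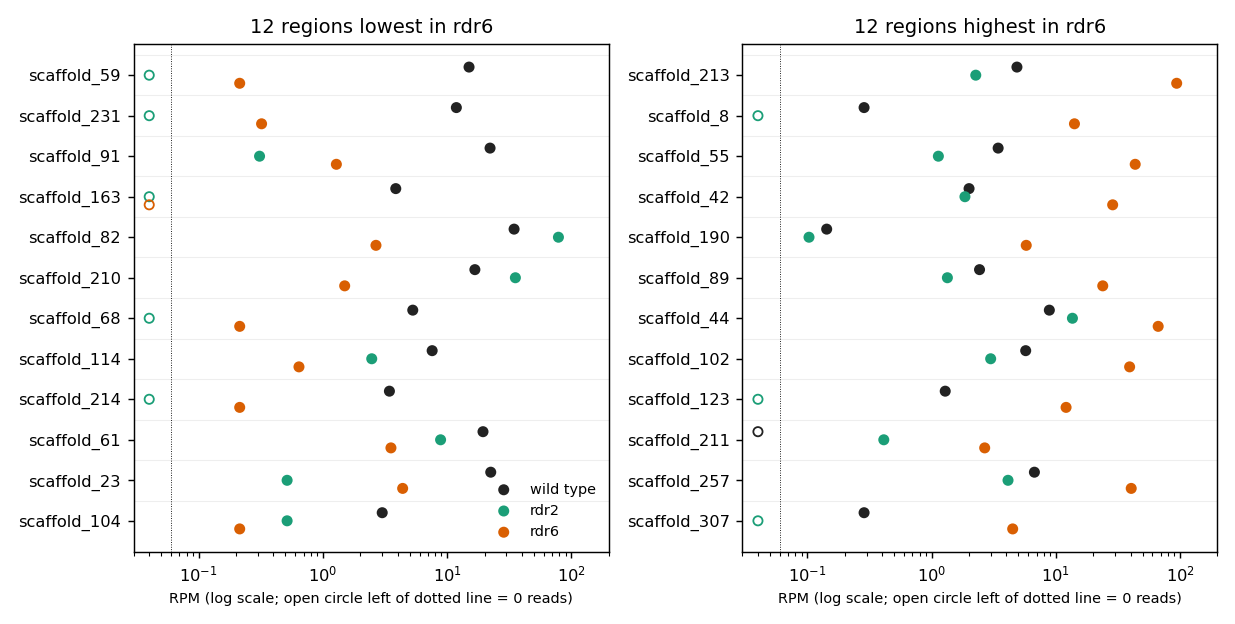
Each row is 1 region, the 12 lowest (left) and the 12 highest in rdr6 (right), ordered by the end of the interval nearest to equal levels, with its RPM in wild type, rdr2 and rdr6 on a log axis. Open circles left of the dotted line stand for 0 reads. In the left panel rdr2 lies above wild type in the scaffold_82 and scaffold_210 regions and below it in the other 10, and in the right panel rdr6 stands alone at the right of every row.

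Among lower regions, the level in rdr2 differed with the length of the locus that held most wild-type and rdr6 reads. This split was made after the values were seen, and has no test. Of the 35 lower regions, 9 were led by a locus of 30 bp or less. These had 23 to 158 reads in wild type (median 53), 0 to 24 in rdr2 (median 0) and 2 to 51 in rdr6 (median 3). In rdr2, 6 of these 9 had no read, 66.7%. The 24 rdr2 reads were those of the scaffold_114 region, 23 of them at a locus of 31 bp. The 26 lower regions led by a longer locus had 17 to 242 reads in wild type (median 41), 0 to 764 in rdr2 (median 26) and 0 to 65 in rdr6 (median 11.5), and 2 of them, 7.69%, had no rdr2 read. Among the regions that were not called, 7.87% of the 572 led by a short locus and 0.609% of the 1805 led by a longer one had no rdr2 read. The higher regions did not show this split. Of these, 14.3% of the 7 led by a short locus and 18.2% of the 22 led by a longer one had no rdr2 read. Their median rdr2 counts were 8 and 11. Since rdr2 is compared here through regions called against the same wild-type library, these levels stand side by side and are no second comparison. The median uncalled region was also lower in rdr2, with 5.43 RPM in wild type, 5.67 in rdr6 and 2.16 in rdr2. Summed over the uncalled regions, rdr2 had more, with 759238 RPM against 597280 in wild type.

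Loci within the called regions mostly lay on the same side. Of the 35 lower regions, 14 had at least 2 loci with 5 or more reads, and in 11 of them all such loci were below wild type, as were 34 of 37 loci in all. Of the 29 higher regions, 19 had at least 2 such loci, and in 17 all were above wild type, as were 59 of 62 loci. The choice of regions by their sum favours this, and loci of 1 region are not replicates. Without the locus with most reads, 9 lower and 16 higher regions kept at least 20 reads, of which 4 and 9 still met the rule. All 9 of these lower regions stayed below wild type, and 15 of the 16 higher ones stayed above it. The exception was the scaffold_136 region (318780 to 325735), named after its values were seen. It gave 14 wild-type, 105 rdr6 and 11 rdr2 reads, of which Cluster_22907, a locus of 15 bp, gave 0 in wild type and 94 in rdr6, and the other loci 14 and 11.

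**Figure D4:**
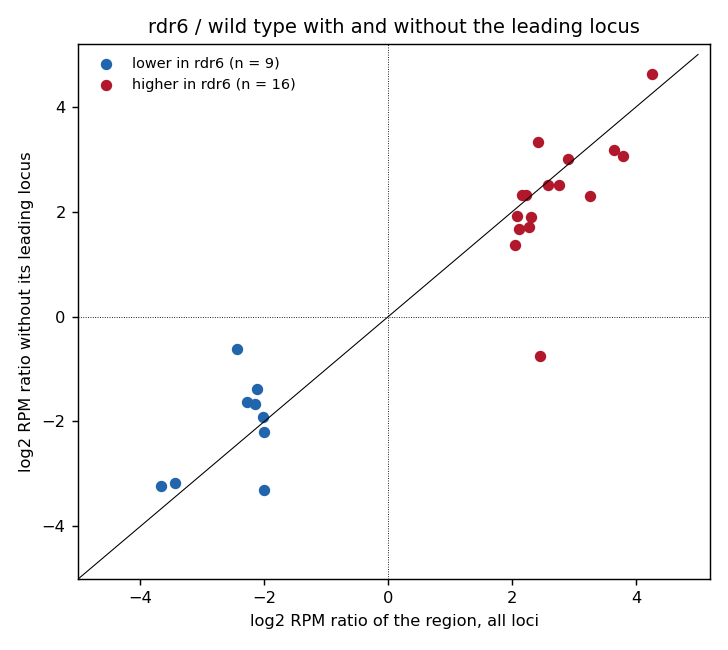
Each point is a called region that kept at least 20 reads without its locus of most reads (9 lower, 16 higher), with the log2 RPM ratio of rdr6 to wild type over all loci (x axis) and over the remaining loci (y axis). The diagonal marks equal values. In 1 region, on scaffold_136, the remaining loci lie on the other side of 0.

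Summing over regions also hid single loci. Among 3279 nuclear loci with at least 20 reads over both libraries, 55 were lower in rdr6 by the same rule (1.68%) and 57 higher (1.74%). Of these, 32 lower and 40 higher loci lay in a region called in the same direction, 23 and 17 lay in regions that were not called, and none lay in a region called in the opposite direction. Conversely, 7 lower and 5 higher regions held no called locus and met the rule only by their sum. The following loci were named after their values were seen. Cluster_35223 (scaffold_341, 140916 to 140931) gave 91 wild-type and 3 rdr6 reads, in a region of 11 loci with 247 and 203 reads. Cluster_22924 (scaffold_136, 466699 to 467218) had 2 and 128 reads, in a region with 185 and 712 reads that was 2.88-fold higher (2.45 to 3.40). Cluster_11547 (scaffold_48, 626488 to 626930) had 38 and 4 reads, while its region had 1009 and 2107 and was 1.56-fold higher in rdr6 (1.45 to 1.69). Neighbouring loci within 10 kb can thus differ in opposite directions between these libraries.

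Examined regions within 50 kb of a called region were also looked at. Within 50 kb of a lower region, 18 examined regions lay near 12 of the 35, and none was called. Their log2 ratios ran from -1.66 to 1.22 with a median of 0.20. Within 50 kb of a higher region, 14 regions lay near 11 of the 29, none was called, and their log2 ratios ran from -0.95 to 2.06 with a median of 0.12. Over all 2441 regions the median was 0.13, and 1.43% were called lower and 1.19% higher. At these shares so few neighbours would hold hardly any call wherever they lay. The lack of calls near called regions therefore does not show that the differences were local. More than 1 called region lay on scaffold_104, scaffold_243 and scaffold_7, with 2 lower regions each, and on scaffold_37, with 2 lower and 1 higher.

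The share of regions called did not follow their number of loci in 1 direction. Regions of 1 listed locus were lower in 3 and higher in 6 of 392 cases, and those of 2 to 4 loci in 17 and 9 of 1094. Regions of 5 to 9 loci were lower in 13 and higher in 13 of 719, and those of 10 or more in 2 and 1 of 236. The called regions had a median span of 4266 bp (lower) and 4656 bp (higher), against 5773 bp for the others. Over 50% of the wild-type and rdr6 reads lay in loci of 30 bp or less in 9 of the 35 lower regions (25.7%), in 7 of the 29 higher ones (24.1%) and in 23.9% of those not called.

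Depth set which regions could be called. With 20 reads over both libraries, a lower call needed at most 3 of them in rdr6 and a higher call at most 1 in wild type. With 100 reads the limits were 25 and 15. At the minimum itself, the 35 regions with 20 reads had 0 to 17 reads in wild type (median 8) and 3 to 20 in rdr6 (median 12), and 2 met the rule. The 36 regions with 19 reads, just outside, had 2 to 12 (median 8) and 7 to 17 (median 11), and none would have met it.

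At high depth the interval excluded equal levels in nearly every region, even where the difference was small. The interval lay wholly below equal levels in 400 regions (16.4%) and wholly above in 632 (25.9%). The share with an interval excluding 1 was 19.9% of regions with 20 to 49 reads, 62.5% with 200 to under 1000 and 93.8% with 10000 or more. On the RPM scale the libraries thus differed by more than these intervals cover. Reads that repeat 1 molecule can make the intervals too narrow, and other scalings shift every ratio. Whether the spread exceeds true counting error was therefore not tested, and the spread between libraries of 1 genotype was not measured. The central 90% of log2 ratios ran from -1.496 to 1.57 with 20 to 49 reads and from -0.32 to 1.00 with 1000 to under 10000. Regions of 1000 to under 10000 reads had a median of 0.37, against -0.01 for the 65 regions with 10000 or more.

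**Figure D5:**
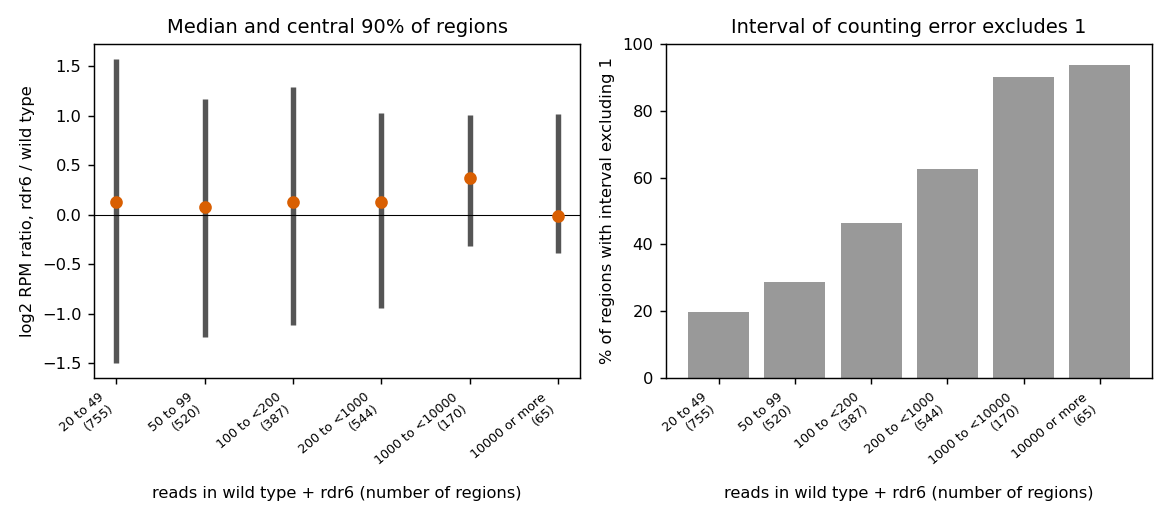
Regions are grouped by their reads in wild type and rdr6 together (x axis, number of regions in parentheses). The left panel gives the median (point) and central 90% (line) of the log2 RPM ratio of rdr6 to wild type, and the right panel the percentage of regions whose interval excludes a ratio of 1. The central 90% is narrower in the deepest group than in the shallowest, and the share excluding 1 climbs from 19.9% to 93.8% with depth.

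None of the 235 regions with at least 1000 reads was called, and their log2 ratios ran from -1.14 to 1.501. In 8 of them the interval lay wholly above 2-fold higher, and in none wholly beyond 2-fold lower. The most extreme of these were named after their values were seen. The scaffold_100 region (1351848 to 1359028) gave 242 wild-type, 917 rdr6 and 21 rdr2 reads, 2.83-fold higher in rdr6 (2.46 to 3.28). The scaffold_128 region (806039 to 873343) gave 740, 2584 and 268 reads in that order, 2.61-fold higher (2.41 to 2.84), and the scaffold_250 region (321629 to 330897) gave 897, 2865 and 309, 2.39-fold higher (2.22 to 2.58). In these regions rdr2 was the lowest library and rdr6 the highest. A single locus held 100% of the wild-type and rdr6 reads in the scaffold_100 region. It was 99.9% in the scaffold_128 region, where 2 of 25 loci had a read, and 77.2% in the scaffold_250 region. In the other direction, the scaffold_212 region (253385 to 264199) gave 792, 479 and 576 reads, 2.21-fold lower in rdr6 (1.97 to 2.48), with 16 of 17 loci carrying reads. The scaffold_240 region (297832 to 308939) was 2.14-fold lower (1.95 to 2.34) and the scaffold_475 region (106300 to 131240) 1.56-fold lower (1.38 to 1.76).

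The regions with most reads differed little between rdr6 and wild type. The scaffold_699 region (303 to 10023) gave 585957 wild-type and 646321 rdr6 reads, which were 83801 and 69154 RPM, 1.212-fold lower in rdr6 (1.208 to 1.216). The scaffold_571 region (14 to 40516) had 65879 and 69760 RPM, 1.059-fold higher (1.055 to 1.063). Its log2 ratio of 0.083 became -0.0055 with TMM factors, so its direction depended on the scaling. The scaffold_557 region (23520 to 78960) had 37710 and 34777 RPM, 1.08-fold lower. These differences are under 2-fold although their intervals exclude equal levels. The scaffold_758 region (1 to 9174) had 32550 and 26212 RPM, and the scaffold_73 region (17124 to 20433) 23659 and 20578 RPM. In rdr2 these 5 regions had 157102, 48748, 60999, 76556 and 65976 RPM, in the order named. Whether such regions share reads of repeated sequence was not tested.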

How the data were processed

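Per the labels' protocols, RNA from which ribosomal RNA had been removed was treated with RNase One, which degrades single strands, before sequencing. Bowtie 0.12.9 and SAMtools were used, per the submitters' processing notes. The sources used here do not name the genome build, locus caller or handling of reads with several matches, so reads of repeats may be shared between loci. The deposited tables hold the raw count and the RPM (reads scaled to the library total) of each of 39975 loci, per the file headers. Each library's total was taken as its summed count divided by its summed RPM. The rdr2 library was taken by its label, although its table is named for a different rdr gene.

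Consecutive nuclear loci within 10 kb were joined, counts summed, and regions with at least 20 reads over both libraries kept. Ratios of RPM have exact Clopper-Pearson 95% intervals. They cover counting error only. A call needs a ratio of at least 4 and an interval wholly beyond 2-fold. No count test was run, because a genotype with 1 library has no replicate spread. The gene table at hand belongs to another assembly and was not used. The members and the choices of merging, minimum and call rule were made with earlier results of these data known. Named regions are the 12 lowest and 12 highest by the interval end nearest to equal levels, the 5 with most reads, the 3 called regions per direction with most loci that had a read, and up to 4 per direction without a read in 1 library. Python 3.11.15, numpy 2.4.6, pandas 2.3.3, scipy 1.17.1 and matplotlib 3.10.9 were used, with edgeR 4.0.16 in R 4.3.3 for TMM factors. The code was tested on simulated data. Alternatives in scaling, minimum, merging distance, loci summed, call rule and pseudocount were tried.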

Additional observations from a re-analysis of the deposited data

Results flagged for a closer look

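On the RPM scale and outside the examined regions, plastid loci and the regions with few reads stood above wild type in rdr6, whereas mitochondrial loci and reads outside the listed loci stood below it. The 17 plastid loci had 236849 RPM in wild type and 278927 in rdr6, a ratio of 1.178 (exact 95% interval 1.175 to 1.180, counting error only). The 11707 nuclear regions under the read minimum had 1333 RPM in wild type and 1472 in rdr6, a ratio of 1.10 (1.08 to 1.13). The ratio was 0.989 (0.980 to 0.998) at the 51 mitochondrial loci and 0.889 (0.887 to 0.892) for reads outside the listed loci. These differences are smaller than the central 90% of the examined regions, and the spread between libraries of 1 genotype was not measured. Other scalings shifted every log2 ratio, by -0.088 with TMM factors and by 0.062 with the reads in nuclear loci. The side of wild type on which the mitochondrial loci stood therefore depends on the scaling.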

How the results depend on the processing

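No paired analysis was possible because each genotype has 1 library. The main counts were 35 lower and 29 higher regions. TMM factors and the reads outside the 1% of loci with most reads each gave 39 and 28, and the reads in nuclear loci 26 and 31. Median-of-ratios size factors left the counts at 35 and 29. A minimum of 50 reads gave 18 lower and 21 higher regions, and joining within 20 kb gave 20 and 26. Single loci gave 55 lower and 57 higher. Without the locus with most reads of each region, 6 lower and 16 higher of 919 regions were called. An interval wholly beyond 4-fold left 8 lower and 12 higher, and a looser rule, 2-fold with an interval excluding 1, gave 153 and 208. The median log2 ratio of 0.13 became 0.046 with TMM factors, 0.051 with the reads outside the 1% of loci with most reads, 0.20 with the reads in nuclear loci, 0.18 with no minimum, 0.068 without the locus with most reads and 0.10 without loci of 30 bp or less. The cause of these shifts was not tested. The 30 named regions that were called kept their call under each of 4 other scalings and both pseudocounts. The 5 regions named for most reads, none of them called, left their main interval under each of these 4 scalings. Joining within 20 kb ended the call of 5 of the 30, and leaving out the locus with most reads that of 4 of the 14 that kept enough reads. None of these 30 regions changed direction where a value could be had. The called region on scaffold_136, named after its values were seen, is not among them. It did change direction: without its locus with most reads its log2 ratio went from 2.44 to -0.75. No replicate could be left out.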
